A study of Homo sapiens with 6 samples.

Results

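Of the 45019 gene rows in each file, 48 belong to receptor tyrosine kinases outside the EGFR family and were chosen by gene name. The list holds MET and its relative MST1R, the TAM, insulin, FGF, PDGF, VEGF, TIE, discoidin and Eph receptors, and smaller families. A mean of at least 10 normalized reads over all libraries was reached by 41 of the 48, and these were tested. RNA came from MDA-MB-468, an established triple-negative breast cancer cell line, in 2 groups at day 10: cells left untreated, and cells kept in DETA/NO at 100 µM, a donor from which nitric oxide is set free over hours. Both were grown in DMEM with fetal bovine serum. Treated dishes of a replicate were pooled at each passage, replated every 48 h and given 4 h to attach before the compound was renewed. The same 48 h and 4 h are listed for the untreated samples, but whether their dishes were pooled and handled alike is not said. The series asks whether nitric oxide, described by its submitters as an FTO inhibitor, goes together with changed transcription. Both groups consist of 1 cell line, and the control received no spent donor compound, so the carrier and the nitric oxide cannot be told apart.

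Receptor tyrosine kinases carry growth factor, collagen, Wnt or ephrin signals across the cell membrane. Binding of a ligand brings receptors together, the kinase domains phosphorylate each other, and adaptor proteins dock on the phosphorylated tails and pass the signal to the RAS, PI3K and phospholipase C pathways. Phosphatases, ubiquitin ligases such as CBL and inhibitory adaptors end the signal. In breast epithelium MET and the Eph receptors are known for roles in migration and in cell sorting, and INSR for metabolic and growth signalling. A few members, among them EPHB6, PTK7 and RYK, are classed as pseudokinases, which signal with little or no catalytic activity of their own.

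Each group had 3 labelled samples. No value differed between the files labelled DETA/NO 1 and 2, so their mean entered as a single library, which leaves n = 3 untreated and n = 2 DETA/NO libraries. Totals were 28897422 to 34637343 recovered reads per library. The labels do not say that replicates were separate cultures, and the spread behind each p-value may be technical. All 12 epithelial markers were above the minimum mean of 10, with KRT8 the highest (39440 normalized reads over all libraries). Markers of other cell types were lower. The 10 endothelial markers summed to 368 to 378 in untreated and 462 to 494 in DETA/NO libraries, the 12 fibroblast and mural markers to 859 to 930 and 1185 to 1222. The 12 immune markers, mostly through CD14, summed to 958 to 1033 and 463 to 533. The 10 neural and glial markers, nearly all from MBP, summed to 2076 to 2254 and 2152 to 2216. Among those listed at 0 in every library were CLEC14A (endothelial), THY1 (fibroblast), CD68 and TYROBP (immune), and SOX10, S100B and SNAP25 (neural and glial). Of these, THY1, CD68, SOX10 and SNAP25 have 100% of their exon bases inside other listed genes, as has SOCS5, and PIK3R2 has 99.1%. SOCS5 and PIK3R2 are used in most cells and were also listed at 0, so a 0 in such a gene does not show that its RNA was absent. The part of read assignment was not tested.

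With DETA/NO, 17 of the 41 tested receptors rose and 6 fell by limma (Benjamini-Hochberg adjusted p under 0.05 over all genes). That is 56.1% of the receptors, against 43.4% of all 16409 genes tested, where 21.7% rose and 21.7% fell. The median log2 fold change was 0.18 for the receptors and -0.00016 for all tested genes. MET, EPHA4 and EPHB6 rose by 1.64 to 1.78 times at high levels, INSR and EPHB2 and EPHB3 fell, and AXL, NTRK2, TEK and MUSK rose by more than 2-fold from low levels. At least 2-fold higher were 5 of the 41 receptors (2.21% of all tested genes were), and 1 was at least 2-fold lower (1.58% of all tested genes were). TEK and MUSK, among the 5, had untreated means of 5.69 and 6.05 and reached the minimum of 10 only through their DETA/NO values. PDGFRA, with means of 10.2 untreated and 2.93 with DETA/NO, was not tested. The counts of 5 and 1 therefore depend in part on the minimum. The DETA/NO libraries lay outside the range of the untreated libraries in 28 receptors, 20 above and 8 below, which is 68.3% of the 41 against 61.2% of all tested genes.

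**Figure D1:**
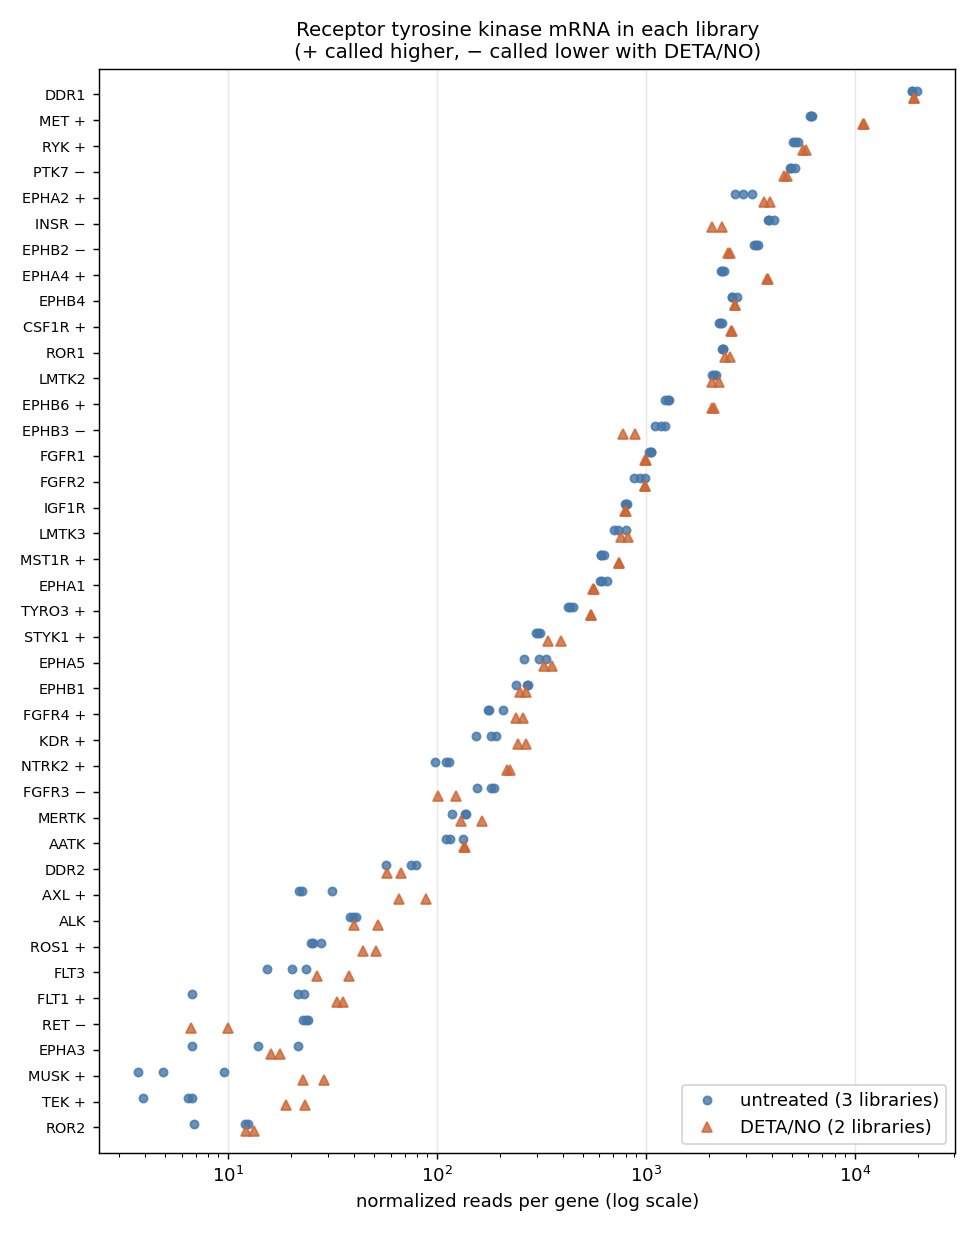
Normalized reads per gene (log axis) of the 41 tested receptors in each library, ordered by mean; circles are the 3 untreated and triangles the 2 DETA/NO libraries. The triangles of MET, EPHA4 and EPHB6 lie clear to the right of the circles, those of INSR, EPHB2 and EPHB3 clear to the left, and those of DDR1 among them.

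To show the start regions of receptors that moved, the 250 bases before the most upstream RefSeq start (GRCh38.p14) are printed for the 2 rising and the 2 falling receptors with the smallest adjusted p. The windows lie at chr7:116671946-116672195 (plus strand, MET), chr2:221574203-221574452 (minus strand, EPHA4), chr19:7294415-7294664 (minus strand, INSR) and chr1:22710588-22710837 (plus strand, EPHB2). Capitals mark a GC box, GGGCGG or its reverse complement, the letters that the factor SP1 is known to bind.
MET: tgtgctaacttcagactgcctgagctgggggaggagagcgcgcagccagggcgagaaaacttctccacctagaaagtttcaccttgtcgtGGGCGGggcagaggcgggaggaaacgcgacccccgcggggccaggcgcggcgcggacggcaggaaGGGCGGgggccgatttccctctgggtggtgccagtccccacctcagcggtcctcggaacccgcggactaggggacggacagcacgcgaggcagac
EPHA4: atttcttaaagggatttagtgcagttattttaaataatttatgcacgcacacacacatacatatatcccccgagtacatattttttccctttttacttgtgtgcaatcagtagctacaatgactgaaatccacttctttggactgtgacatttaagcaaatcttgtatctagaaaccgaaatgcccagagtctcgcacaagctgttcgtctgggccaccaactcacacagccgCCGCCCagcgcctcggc
INSR: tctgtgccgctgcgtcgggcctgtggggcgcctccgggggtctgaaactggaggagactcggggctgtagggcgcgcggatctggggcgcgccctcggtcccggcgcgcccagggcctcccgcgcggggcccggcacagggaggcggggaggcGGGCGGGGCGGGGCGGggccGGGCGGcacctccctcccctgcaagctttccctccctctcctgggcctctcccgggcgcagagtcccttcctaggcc
EPHB2: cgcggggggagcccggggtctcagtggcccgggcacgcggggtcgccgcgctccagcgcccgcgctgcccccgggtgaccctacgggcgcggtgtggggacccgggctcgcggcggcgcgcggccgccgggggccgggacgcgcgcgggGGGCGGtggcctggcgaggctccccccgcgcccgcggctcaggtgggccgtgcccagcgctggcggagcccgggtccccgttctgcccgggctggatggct
The windows held 2 GC boxes in MET, 1 in EPHA4, 4 in INSR and 1 in EPHB2, and their GC content was 68.4%, 43.2%, 78.4% and 84.8%. RefSeq windows were at hand for 45 of the 48 receptors. A GC box was in 13 of 16 rising, 6 of 6 falling and 11 of 17 uncalled receptors, and in 42.2% of 27305 promoters of the same length. Median GC content was 64.4% for rising, 79.0% for falling and 69.2% for uncalled receptors, and 57.6% for all promoters. The AP-1 letters TGANTCA were in 2 rising receptors (TYRO3 and CSF1R), 0 falling and 0 uncalled ones, against 6.57% of all promoters. The cAMP response element TGACGTCA was in 2 rising receptors (FLT1 and EPHA2) and in no falling or uncalled one, against 1.75%. The hypoxia element core ACGTG was in 3 rising (ROS1, NTRK2 and MUSK), 0 falling and 2 uncalled receptors, against 18.6%. The ETS letters CCGGAAGT were in none of them (3.64% of all promoters), and the STAT letters TTCNNNGAA in 3 uncalled ones only (6.76%). All motifs were searched on both strands, and a match is a description of letters. Matches of different motifs overlapped in 0 members, and GC boxes overlapped each other in INSR, MST1R and RET.

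MET, the receptor of hepatocyte growth factor, is on chromosome 7 at 116672390 to 116798386. Untreated cells held 6076, 6222 and 6168 normalized reads of it, and DETA/NO cells 10938 in library 1 and 2 (the shared one) and 11012 in library 3. The groups were far apart, each with a narrow spread. The log2 fold change was 0.83 ± 0.031 (SE; limma adjusted p = 2.25e-20), or 1.78 times. MST1R (RON), the receptor of macrophage stimulating protein, had 607, 610 and 630 in untreated and 744 and 743 in DETA/NO libraries. It rose by 0.27 ± 0.063 on the log2 scale (limma adjusted p = 0.000738), and 26.8% of its exon bases lie within the spans of other listed genes. HGF, the ligand of MET, lay under the minimum, with 7.65, 8.83 and 7.39 against 3.32 and 4.75.

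The TAM receptors AXL, TYRO3 and MERTK bind GAS6 and protein S and serve in the clearance of dead cells and in survival signals. AXL, on chromosome 19 at 41219203 to 41261766, had 21.98, 22.56 and 31.42 normalized reads in untreated and 88.6 and 65.5 in DETA/NO libraries. Its log2 fold change was 1.57 ± 0.23 (adjusted p = 1.42e-06), 3.04 times, and both DETA/NO values lay above every untreated one. TYRO3 went from 436, 426 and 450 to 547 and 547, a rise of 0.32 ± 0.073. MERTK had 118, 137 and 136 against 164 and 131, and the groups overlapped (log2 fold change 0.17 ± 0.13, adjusted p = 0.315). Per length of exon, AXL held 6.04% to 8.01% of the summed TAM receptor level in untreated and 16.8% and 14% in DETA/NO libraries. The ligand GAS6, singled out after its values were seen, rose by 0.96 ± 0.11, from 148, 130 and 130 to 264 and 268, with 89.1% of its exon bases inside GAS6-AS1, while protein S (PROS1) had 32.5, 53.0 and 34.2 against 32.1 and 43.7 (adjusted p = 0.884).

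INSR, the insulin receptor, on chromosome 19 at 7112255 to 7294034, had the smallest adjusted p of the falling receptors. It had 3826, 3895 and 4085 normalized reads untreated and 2071 and 2313 with DETA/NO. The log2 fold change was -0.84 ± 0.043 (adjusted p = 2.95e-15), a level 0.557 times that of untreated cells. IGF1R, the receptor of insulin-like growth factors, had 804, 813 and 796 against 803 and 796, with a log2 fold change of -0.008 ± 0.058 (adjusted p = 0.926). Other genes with rows of their own, most of them antisense, cover 66.4% of the exon bases of IGF1R, and reads there may be assigned to either gene. Per length, INSR held 86.4% to 87.3% of the INSR and IGF1R sum in untreated and 77.5% and 79.5% in DETA/NO libraries. IGF1 had at most 0.981 in any library, but 100% of its exon bases lie inside other listed genes, so this does not show that it was absent.

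Among the FGF receptors, FGFR4 rose and FGFR3 fell. FGFR4 had 175, 178 and 206 untreated and 257 and 240 with DETA/NO (log2 fold change 0.42 ± 0.11, adjusted p = 0.00204). FGFR3 had 155, 181 and 189 against 123 and 102 (log2 fold change -0.63 ± 0.13, adjusted p = 0.000165). In both genes the groups did not overlap. FGFR2 had 995, 942 and 873 against 992 and 991, within the untreated range (adjusted p = 0.257). FGFR1 had 1059, 1056 and 1037 against 1002 and 995, below every untreated value but not past the threshold (log2 fold change -0.07 ± 0.053, adjusted p = 0.277). Per length FGFR2 led the family with 42.4% to 47.6% of its sum in untreated libraries and 46.4% and 47.8% with DETA/NO, while FGFR4 held 13.1% to 15.7% and then 18.9% and 18.2%, and FGFR3 11.6% to 14.3% and then 9% and 7.67%.

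**Figure D2:**
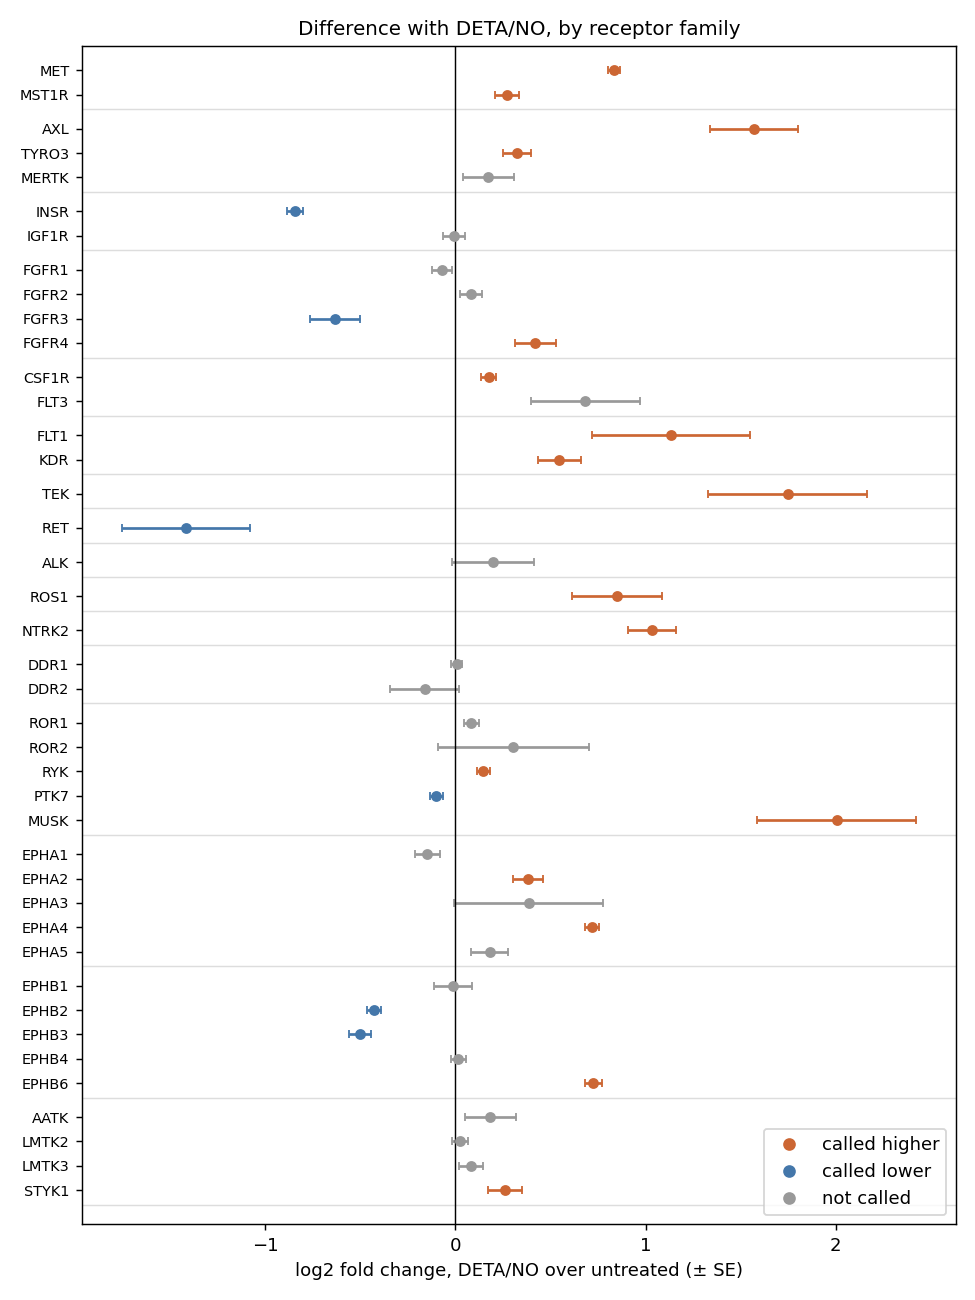
Log2 fold change of DETA/NO over untreated with its SE for the 41 tested receptors, grouped by family with thin lines between families. The 17 called higher, 6 called lower and 18 not called are in separate colours, and the widest errors belong to receptors with few reads, such as MUSK, TEK and FLT1.

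Eph receptors bind ephrins on neighbouring cells, the A class mainly ephrin-A and the B class mainly ephrin-B proteins. Of 10 tested Eph receptors 3 rose (EPHA2, EPHA4 and EPHB6), 2 fell (EPHB2 and EPHB3) and 5 were not called, 5 of 10 called in all, against 43.4% of all tested genes. EPHA4, on chromosome 2 at 221418027 to 221574202, had 2320, 2280 and 2371 normalized reads untreated and 3782 and 3857 with DETA/NO. Its log2 fold change was 0.72 ± 0.038 (adjusted p = 2.08e-16). EPHA2, on chromosome 1 at 16124337 to 16156087, had 2664, 2907 and 3207 against 3687 and 3921, with a wider untreated spread (log2 fold change 0.38 ± 0.080, adjusted p = 0.0108). When untreated library 2 was left out the adjusted p became 0.0548, and when DETA/NO library 3 was, 0.0680.

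EPHB2, on chromosome 1 at 22710839 to 22921500, had 3430, 3299 and 3364 untreated and 2483 and 2516 with DETA/NO (log2 fold change -0.43 ± 0.037, adjusted p = 3.47e-11). EPHB3, on chromosome 3 at 184561784 to 184582409, had 1111, 1186 and 1229 against 775 and 887 (log2 fold change -0.50 ± 0.060, adjusted p = 5.59e-08). In both genes each DETA/NO library lay below every untreated one. EPHB6, the pseudokinase of the class, on chromosome 7 at 142855061 to 142871094, moved the other way, from 1283, 1235 and 1287 to 2131 and 2062 (log2 fold change 0.72 ± 0.046, adjusted p = 2.09e-14). EPHB4, the receptor of ephrin-B2 in vessels, had 2576, 2581 and 2746 against 2657 and 2659 (log2 fold change 0.01 ± 0.040, adjusted p = 0.816).

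EPHA1 had 616, 600 and 649 against 565 and 556, a log2 fold change of -0.15 ± 0.067 that missed the threshold (adjusted p = 0.0740) although the groups did not overlap. EPHA5 (334, 308 and 262 against 356 and 325), EPHB1 (240, 271 and 272 against 249 and 267) and EPHA3 (6.69, 21.6 and 13.9 against 17.7 and 16.1) overlapped between groups. Other listed genes cover 61.0% of the exon bases of EPHB1. Per length, the EPHA receptors held 48.2%, 49.3% and 50.1% of the summed Eph receptor level in untreated and 55.9% and 56.5% in DETA/NO libraries. EPHA4 went from 12.6% to 13.3% of that sum to 18.1% and 18.0%, and EPHB6 from 9.68% to 10.4% to 14.5% and 13.6%. EPHB2 went from 10.8% to 11.9% down to 7.18% and 7.07%. EPHA2 held the largest share in each library, 27.8% to 30.9% and then 32.1% and 33.2%.

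**Figure D3:**
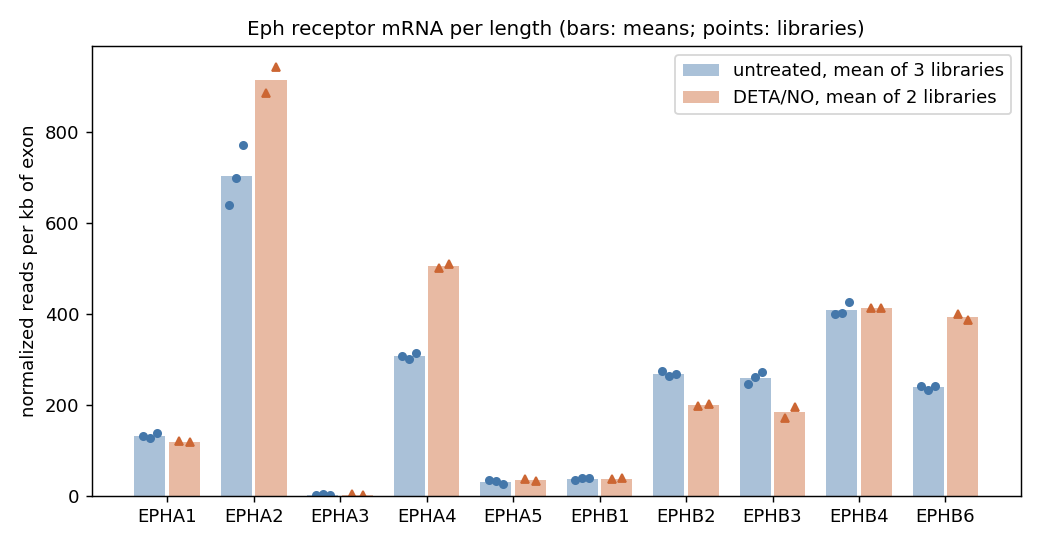
Normalized reads per kb of exon for the 10 tested Eph receptors; bars are group means and points are libraries (3 untreated, 2 DETA/NO). EPHA2, EPHA4 and EPHB6 stand higher with DETA/NO, EPHB2 and EPHB3 lower, and EPHB4 at 409 and 413 stands level.

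Among ephrins, the ligands of these receptors, EFNB2 rose from 1120, 1129 and 1067 to 1570 and 1554 (log2 fold change 0.50 ± 0.049), and EFNB3 fell from 123, 122 and 110 to 74.2 and 77.9 (log2 fold change -0.63 ± 0.15). EFNA3 fell from 70.7, 89.3 and 83.2 to 48.8 and 58.9 (log2 fold change -0.58 ± 0.18, singled out after its values were seen). EFNA1 had 5052, 5647 and 6276 against 7000 and 7353, above every untreated value but not past the threshold (log2 fold change 0.35 ± 0.11, limma adjusted p = 0.0941). EFNB1 and EFNA5 overlapped between groups and were not called, and EFNA2 lay under the minimum. Other listed genes cover 55.4% of the exon bases of EFNB2, 61.7% of EFNA3 and 100% of EFNA4, which was listed at 0.

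The VEGF and TIE receptors of blood vessels were present at low levels. The 3 that were tested, KDR, TEK and FLT1, rose (21.7% of all tested genes did). TEK had an untreated mean of 5.69 and reached the minimum of 10 only through its DETA/NO values (mean 21.1). FLT4 (means of 0.962 untreated and 0.475 with DETA/NO) and TIE1 (1.60 and 0.950) lay under the minimum and were not tested. EPHB4, also a vessel receptor, stood at a higher level (means of 2634 untreated and 2658 with DETA/NO) and was not called (limma adjusted p = 0.816). KDR (VEGF receptor 2), on chromosome 4 at 55078259 to 55125595, had 182, 191 and 153 normalized reads against 244 and 268 (log2 fold change 0.55 ± 0.11, limma adjusted p = 0.000178), with 40.9% of its exon bases inside the span of another listed gene. TEK, the angiopoietin receptor TIE2, had 6.69, 3.92 and 6.47 against 23.3 and 19.0 (log2 fold change 1.75 ± 0.42, adjusted p = 0.000941). FLT1 (VEGF receptor 1) had 6.69, 21.6 and 23.1 against 35.5 and 33.2 (log2 fold change 1.13 ± 0.42, adjusted p = 0.0395). Its call rested on few reads and was lost in 7 of 17 alternatives. Among them were DESeq2 (adjusted p = 0.0862), limma without trend and robust options (adjusted p = 0.202) and limma after quantile normalization (adjusted p = 0.0511). Without untreated library 1 the log2 fold change was 0.60 (limma adjusted p = 0.0947). It was 1.09 without DETA/NO library 1 and 2, and 1.18 without DETA/NO library 3. Endothelial markers moved with these receptors in part. CDH5 rose from 72.6, 73.6 and 75.8 to 144 and 202, whereas PECAM1 had 86.0, 79.5 and 69.3 against 78.7 and 61.7, ESAM 88.9, 99.1 and 96.1 against 93.1 and 95.0, and CLEC14A was at 0. ERG (16.2, 18.6 and 17.6 against 21.1 and 23.7) and, under the minimum, ROBO4 (1.91, 2.94 and 3.70 against 13.3 and 8.55) and PLVAP (0.956, 5.89 and 5.54 against 6.65 and 11.4) lay above every untreated value, and EGFL7 lay below. VWF (21.0, 18.6 and 26.8 against 32.1 and 26.6) overlapped between groups and was not called, and CLDN5 lay under the minimum. In the list of 10, 6 were tested and 1 rose, and the part of these markers in the receptor values was not tested. Both groups consist of 1 epithelial cell line. In its bulk RNA, more cells with a transcript and more RNA per cell cannot be told apart. VEGFA, the main ligand of KDR, rose from 3684, 3782 and 4100 to 4544 and 4401 (log2 fold change 0.22 ± 0.039, a gene picked after its values were seen).

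CSF1R, best known as the receptor of macrophage colony stimulating factor in myeloid cells, was among the higher receptors of this epithelial line. It had 2248, 2307 and 2266 normalized reads untreated and 2571 and 2568 with DETA/NO, a rise of 0.18 ± 0.039 (adjusted p = 0.000425). Of the immune markers, TYROBP was listed at 0 with no overlapping gene. CD14 (100% of exon bases inside TMCO6) fell from 909, 963 and 945 to 390 and 456, and PTPRC rose from 14.3, 8.83 and 16.6 to 34.4 and 33.2. ITGAM had 31.5, 55.9 and 31.4 against 35.5 and 39.9 (limma adjusted p = 0.959), and AIF1, LYZ and CD163 lay under the minimum. Of the CSF1R ligands, CSF1 had 1061, 1050 and 962 against 1165 and 944 (adjusted p = 0.753) and IL34 had 33.5, 38.3 and 49.0 against 29.9 and 43.7. FLT3, a receptor of blood progenitors, had 15.3, 23.5 and 20.3 against 26.6 and 38.0 (log2 fold change 0.68 ± 0.29, adjusted p = 0.0544), above every untreated value but not past the threshold.

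NTRK2 (TrkB), the receptor of BDNF, on chromosome 9 at 84668551 to 85027070, had 111, 114 and 98.0 normalized reads untreated and 217 and 224 with DETA/NO. Its level was 2.05 times that of untreated cells (log2 fold change 1.03 ± 0.13, adjusted p = 3.92e-08), and both DETA/NO values were alike. BDNF and NTF4, its ligands, were listed at 0, but 100% of the exon bases of both lie inside other listed genes, so the 0 does not show that they were absent. RET, the receptor of GDNF family ligands, had 22.9, 23.5 and 24.0 against 9.97 and 6.65 (log2 fold change -1.42 ± 0.34, adjusted p = 0.000862), 0.354 times. Its co-receptor GFRA3 (61.2, 60.8 and 52.7 against 44.3 and 38.0) was also lower (adjusted p = 0.0430), and ARTN, the ligand that uses GFRA3, rose from 978, 904 and 1016 to 1556 and 1580. ROS1 had 27.7, 25.5 and 25.0 against 44.3 and 51.3 (log2 fold change 0.85 ± 0.24, limma adjusted p = 0.00388), but 84.0% of its exon bases lie inside the spans of other listed genes. Without DETA/NO library 3 its log2 fold change was 0.746 and the call was lost. ALK had 41.1, 38.3 and 39.7 against 39.9 and 52.2 (adjusted p = 0.493).

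DDR1, the collagen receptor of epithelia, on chromosome 6 at 30876421 to 30900156, had the highest level per length of the 48. It had 18810, 18870 and 19759 normalized reads untreated and 19164 and 19309 with DETA/NO, inside the untreated range, with a log2 fold change of 0.007 ± 0.029 (adjusted p = 0.870). DDR2, its mesenchymal relative, had 75.5, 79.5 and 57.3 against 67.6 and 57.9 (adjusted p = 0.512).

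Of the receptors that bind Wnt proteins or take part in Wnt signalling, RYK rose, PTK7 fell and ROR1 and ROR2 were not called. RYK, a pseudokinase co-receptor, had 5073, 5335 and 5159 against 5644 and 5835, a rise of 0.15 ± 0.034 (adjusted p = 0.000667). PTK7, a pseudokinase of planar cell polarity, had 4964, 4894 and 5194 against 4759 and 4597 (log2 fold change -0.10 ± 0.035, limma adjusted p = 0.0188). Its call was lost in 5 of 18 alternatives, among them DESeq2 (adjusted p = 0.0661) and limma without trend and robust options (adjusted p = 0.174). Leaving out untreated library 3 gave a limma adjusted p of 0.0613, and leaving out DETA/NO library 3 a log2 fold change of -0.076. ROR1, a receptor of WNT5A, had 2307, 2334 and 2340 against 2399 and 2532 (log2 fold change 0.08 ± 0.040, adjusted p = 0.0950), and ROR2 12.42, 6.87 and 12.01 against 12.19 and 13.29. WNT5A itself rose from 155, 164 and 141 to 413 and 384 (log2 fold change 1.37 ± 0.10, adjusted p = 1.53e-12), with the smallest adjusted p of all ligands tested.

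MUSK, the muscle receptor that clusters acetylcholine receptors, had 9.56, 4.90 and 3.70 against 28.8 and 22.8. This was the largest fold of all tested members at 4.26 times (log2 fold change 2.00 ± 0.42, limma adjusted p = 0.000205). With an untreated mean of 6.05, MUSK reached the minimum of 10 only through its DETA/NO values, and its fold is to be read with that limit. AGRN, which acts on MUSK through LRP4, went from 10525, 10537 and 11484 to 12295 and 12010, and LRP4 lay under the minimum. STYK1, an atypical receptor kinase, had 299, 310 and 306 against 391 and 342 (log2 fold change 0.26 ± 0.088, adjusted p = 0.0164). STYK1 lost the call in 4 of 18 alternatives, among them DESeq2 (adjusted p = 0.0755) and limma without trend and robust options (adjusted p = 0.0555). Leaving out untreated library 1 gave a limma adjusted p of 0.0509, and leaving out DETA/NO library 1 and 2 a log2 fold change of 0.164. The LMTK kinases were not called: LMTK2 had 2123, 2084 and 2159 against 2084 and 2228, LMTK3 733, 701 and 802 against 819 and 757, and AATK (LMTK1) 134, 111 and 116 against 135 and 137.

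The remaining 7 members had a mean under 10 and were not tested. PDGFRA, a receptor of fibroblasts and glial progenitors, had 13.4, 9.81 and 7.39 untreated and 1.11 and 4.75 with DETA/NO, and other listed genes cover 69.4% of its exon bases. When no filter was applied it had a log2 fold change of -1.65 ± 0.51 (limma adjusted p = 0.00595). LTK reached 12.3 in DETA/NO library 3 and 2.94 to 7.39 elsewhere. PDGFRB, NTRK3, TIE1, FLT4 and EPHA7 stayed under 6 in all libraries.

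Per length of exon, untreated cells held DDR1 at 2100, MET at 875, EPHA2 at 703, RYK at 645 and PTK7 at 556 normalized reads per kb, and these 5 made up 55.1% to 55.8% of the sum over all members. The ranges of EPHA2 and RYK overlapped over the untreated libraries, while the other neighbours among the first 5 were apart. The DETA/NO means had the same first 5, with PTK7 (518) close to EPHA4 (506). MET went from 9.73% to 10.1% of the summed level to 15.7% and 15.6%, INSR from 4.25% to 4.34% down to 2.00% and 2.21%, and DDR1 from 23.7% to 24.0% to 21.3% and 21.1%. Among the tested members EPHA4 moved from rank 10 to rank 6, EPHB6 from 13 to 9 and INSR from 8 to 12. Lengths are the union of all annotated exons, which makes receptors with many long alternative exons look low.

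Members were called at every level. In the range of 1000 and above, 10 of 15 members were called (57.9% of all tested genes at that level), from 100 to 1000 7 of 15 (45.2%), and from 10 to 100 6 of 11 (22.6%). The median size of the log2 fold change in these 3 ranges was 0.176, 0.183 and 0.849 for members and 0.122, 0.181 and 0.322 for all tested genes. Ranges are by the mean over all libraries of both groups. TEK and MUSK, both called, stand in the lowest range only through their DETA/NO values (untreated means of 5.69 and 6.05), which limits the values of that range. The median log2 gap between the DETA/NO libraries was 0.096 over the members and 0.0824 over all tested genes. AXL (0.43), RET (0.52) and FLT3 (0.50) had the widest gaps among receptors.

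The signalling partners of the receptors were followed in 4 lists, described by counts. Of all tested genes 43.4% were called, 21.7% higher and 21.7% lower. Of 68 ligands 35 were tested, and 7 rose and 7 fell (40.0% called, near the 43.4% of all tested genes; median log2 fold change 0.058). Besides WNT5A, ARTN and EFNB2, the falls with the smallest adjusted p were those of MDK, a heparin-binding growth factor (1858, 1895 and 1925 against 1406 and 1271), PDGFC (2152, 2076 and 2105 against 1794 and 1889) and EFNB3. Of 37 co-receptors, ligand activators and binding proteins 27 were tested, and 6 rose and 8 fell (51.9% called against 43.4%; median -0.045). CD44, a co-receptor of MET, rose by 0.27, IGFBP4 by 0.31 and GPC4 by 0.35 on the log2 scale. PLXNB1, a semaphorin receptor that pairs with MET, had a log2 fold change of -0.38, the VEGF co-receptor NRP2 of -0.30 and the syndecan SDC4 of -0.20.

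Adaptors and proximal effectors rose in 12 and fell in 8 of 42 tested genes (47.6% called, near the 43.4% of all tested genes; median 0.044). IRS2, a docking protein of the insulin receptor, rose from 3516, 3615 and 3483 to 5719 and 5665 (log2 fold change 0.69 ± 0.034, adjusted p = 5.65e-17), in the direction opposite to INSR. The kinase FYN rose by 1.13 and the docking protein GAB2 (88.7% of exon bases inside other listed genes) by 0.43. PLCG2, a phospholipase C, went from 4409, 4522 and 4774 to 2498 and 2502 (log2 fold change -0.87 ± 0.037), PIK3R1, a regulatory subunit of PI3K, had a log2 fold change of -0.38 and the RAS exchange factor SOS2 of -0.34.

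Negative regulators rose in 15 and fell in 4 of 31 tested genes, with a median log2 fold change of 0.135. That is 61.3% called against 43.4% of all tested genes (21.7% in each direction). Most of the 31 had a mean of 1000 and above, and 57.9% of all tested genes at that level were called. SOCS2 rose from 56.4, 72.6 and 67.5 to 199.5 and 157.6, the phosphatase INPPL1 by 0.32 and SPRED1 by 0.48 on the log2 scale. LRIG1, which promotes the degradation of receptors including MET, went from 1326, 1362 and 1318 to 883 and 936 (log2 fold change -0.55 ± 0.052), with 46.6% of its exon bases inside SLC25A26. The phosphatase PTPRF (-0.26) and LRIG2 (-0.36) were also lower.

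**Figure D4:**
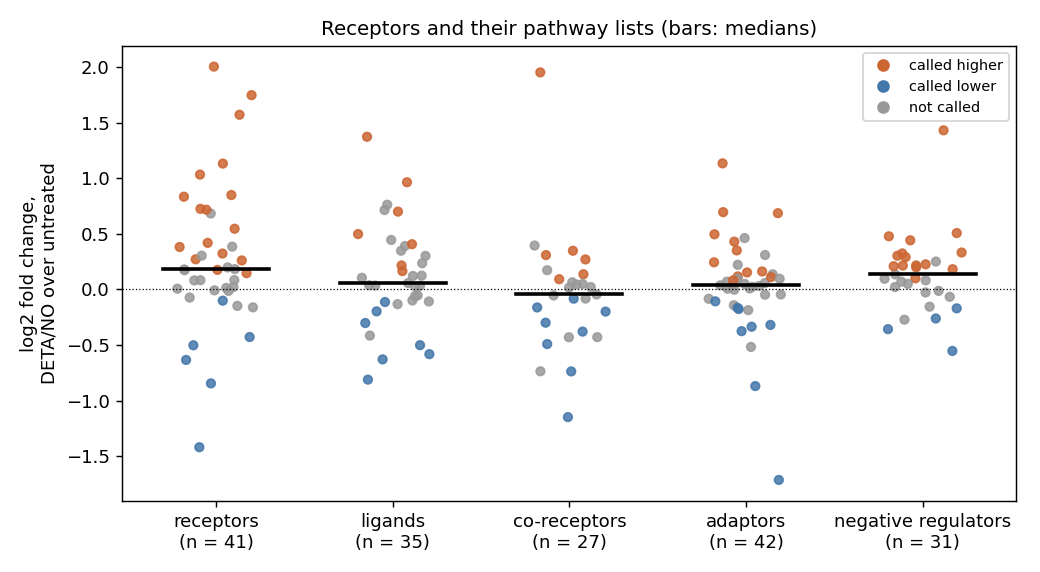
Log2 fold change of DETA/NO over untreated for each tested gene of the receptors and of the 4 pathway lists, coloured by call, with horizontal bars at the medians; the horizontal scatter within a list carries no meaning. Medians are 0.18 for receptors, 0.058 for ligands, -0.045 for co-receptors, 0.044 for adaptors and 0.135 for negative regulators.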

How the data were processed

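RNA-seq of 3 untreated and 3 treated samples was used. The authors deposited 1 normalized read count (signal) per gene and sample. Per the submitters' processing notes, the tools include TopHat2 2.1.1 and Bowtie2 2.5.0.0 and the build is GRCh38; featureCounts 2.0.3, DESeq2 1.38.3 and R 4.2.2 are also named, with no role given; strand setting and annotation are not given in the sources used here. Groups came from the treatment label. In each library 100% of values above 0 were whole reads times 1 factor (tolerance 0.01). Dates stand in place of 27 gene names in each file; these rows, 0.241% to 0.249% of reads, stayed in the tests unnamed.

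The main test was limma 3.58.1 (R 4.3.3, with trend and robust options) on log2(value + 1). It took genes averaging at least 10 and was adjusted by Benjamini-Hochberg over all 16409. Fold changes on this scale understate low genes; folds given as times are ratios of group means. A log-scale test was used because the values are normalized. Alternatives were edgeR 4.0.16 and DESeq2 1.42.0 on recovered reads, leaving out each library, a replicate block, and another scaling, filter or pseudocount. The limma, edgeR and DESeq2 fits were also run on simulated counts with 200 changed genes, far fewer than the 7120 called here. The simulated spread came from these same libraries, so the run does not bear on whether the replicates were separate cultures. Positions, exon lengths and overlaps are from GENCODE 29 (overlaps also from RefSeq). An overlap share counts the exon bases of a gene that lie inside the whole span, introns included, of another gene with a row. It is not the share of exon sequence in common.

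The members and lists were chosen with earlier results of these data known. All members with a mean of at least 10 are given, and from each pathway list the 3 genes called higher and the 3 called lower whose adjusted p was lowest; other list genes named were singled out as ligands or partners of a member after their values were seen.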

Additional observations from a re-analysis of the deposited data

How the results depend on the processing

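Over 18 alternatives the number of rising receptors was 12 to 18 (17 in the main test) and of falling ones 5 to 7 (6). The 12 came with a minimum mean of 50, which leaves fewer genes tested. Of the 23 called receptors 17 kept call and direction in every alternative that tested them. The other 6, FLT1, ROS1, RYK, PTK7, EPHA2 and STYK1, lost the call in at least 1, and none changed sign. RYK lost it only without the limma options (adjusted p = 0.0708). The replicate numbers are not said to mark a shared day. Untreated deviations correlated with the gap between the DETA/NO libraries (3 minus 1 and 2) by -0.029, -0.0011 and 0.030 for numbers 1, 2 and 3. With a replicate block, 18 or 17 receptors rose and 6 or 5 fell, with the shared library as number 1 or 2.

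Of the uncalled receptors 6 changed sign, and the cause was not tested. All were near 0 in the main test except EPHA3 (0.385 ± 0.39). IGF1R was at 0.011, EPHB1 at 0.006 and EPHB4 at -0.008 under quantile normalization. With the block, DDR1 was at -0.003 and -0.005, EPHB4 at -0.001 and -0.002, EPHB1 at 0.015 and EPHA3 at -0.032. Leaving out 1 library gave -0.005 to 0.030 for DDR1, -0.032 to 0.745 for EPHA3, -0.072 to 0.035 for EPHB1, -0.002 to 0.044 for EPHB4 and -0.026 to 0.070 for LMTK2. FLT3 passed in 6 alternatives, EPHA1 and EPHA5 in 1 each. Ligands fell in 4 (7 in the main test) in DESeq2 and rose in 11 (7) when each identical file counted as a library, co-receptors fell in 5 (8) without untreated library 1, and adaptors fell in 5 (8) without the limma options. Receptors with few reads, such as TEK and MUSK, are limited by depth.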
